A study of Mus musculus with 11 samples.

Results

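The genes described are 9 transcription factors grouped under the neuroendocrine lineage: Insm1, Nkx2-1, Foxa1, Foxa2, Neurod1, Prox1, Nfib, Sox2 and Pou2f3. Pou2f3 itself is a factor of tuft cells, which are not neuroendocrine. The 9 genes were chosen by symbol, and they are 9 of the 35056 genes to which the deposited transcripts could be matched, with 29 transcripts among them. The study asked how radiation and blockade of CD47 act on small cell lung cancer (SCLC), and one experiment read the RNA of the tumor cells themselves after irradiation. KP1 is a mouse SCLC cell line mutant for Rb and p53, of the SCLC-A subtype, grown in suspension in RPMI-1640 with serum. The 3 irradiated libraries (replicates 1, 2 and 3) came from KP1 cells collected 24 h after 5 Gy, and the 2 control libraries (replicates 2 and 3) from untreated KP1 cells. All 5 libraries carry the same Rb and p53 mutations and come from 1 cell line. The labels do not say whether the libraries came from separate cultures, so the p values measure the spread between these libraries, which may be technical. Leukocyte samples of the series were not analysed here.

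Neuroendocrine cells of the airway, and SCLC cells that resemble them, are held in their state by a set of transcription factors that switch on secretory and neuronal genes and silence others. Insm1 and Neurod1 act late in endocrine and neuronal differentiation, Nkx2-1 and the forkhead factors Foxa1 and Foxa2 mark the lung and foregut epithelium from which the cells derive, and Prox1, Nfib and Sox2 are factors of progenitor cells. In mouse SCLC Nfib is known for copy number gain and for a part in metastasis. Pou2f3 is the master regulator of tuft cells and marks a separate, non-neuroendocrine class of SCLC.

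TPM is Salmon's abundance per transcript length, scaled to the same total in each library, and was used to compare levels between genes. CPM is the estimated read count relative to the library's total after TMM scaling between libraries, and the fold changes and tests between irradiated and control cells rest on it. TPM lacks this scaling, and it divides reads by transcript length before the total is fixed, which CPM does not. For both reasons the TPM of the groups can differ more, or less, than the fold change says. The means of Nkx2-1, for example, were 196 and 146 TPM but 215 and 197 CPM in control and irradiated cells. The 5 libraries held 21185956 to 31036317 estimated reads. The floor of detection was taken as 3 reads, which is 0.0967 to 0.142 CPM before TMM scaling, and it covers counting error only. The libraries differed in the transcripts that held their reads. Averaged over reads, the transcripts were 4729 and 5463 bases long in the controls and 3625 to 3998 bases in the irradiated libraries, and tests were therefore also run with an offset that removes the trend of each library with transcript length. Among 14106 genes tested, 12.7% were called higher and 13% lower in irradiated cells at an adjusted p under 0.05 (quasi-likelihood test of edgeR, Benjamini-Hochberg adjusted). With the length offset 2.35% were called higher and 1.69% lower. The median log2 fold change of all genes was 0.02, and 0.05 with the offset.

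The line expressed its labelled type. Of 12 neuroendocrine markers all 12 passed the filter on low counts, and their summed level was 2222 to 2331 TPM in the controls and 2313 to 2527 TPM in the irradiated libraries. Their median log2 fold change, which rests on CPM, was 0.41, and 0.16 with the length offset. Of the 12 markers 4 were called higher (Uchl1, Calca, Scg2 and Syp), against 12.7% of all genes, and 1 lower (Ncam1), against 13%. With the length offset 0 were called in either direction. The marker with the highest mean level was Uchl1, a ubiquitin hydrolase of neurons, whose log2 fold change was 1.14 (SE 0.28, adjusted p = 0.0229 by edgeR). Markers of other cells were low, apart from Pdgfra. The summed level of 6 alveolar type 2 and airway markers was 2.87 to 12.3 TPM, of 6 leukocyte markers 1.21 to 6.91 TPM and of 3 endothelial markers 0.314 to 1.55 TPM. Scgb1a1, Scgb3a2, Sftpa1 and Krt5 were listed at 0 in all 5 libraries. Of these markers Sftpc, the surfactant protein of alveolar type 2 cells, was called higher in irradiated cells (log2 fold change 1.72, adjusted p = 0.0276 by edgeR), from 2.87 and 5.41 TPM to between 10 and 12.3 TPM. Sftpc lost its call with the length offset (log2 1.09, adjusted p = 0.134 by edgeR). It is a target of Nkx2-1 in the lung, and a link to Nkx2-1 was not tested here. The 5 fibroblast markers summed to 36.7 to 67.3 TPM, nearly all of it from Pdgfra, while Col1a1 reached 13.5 TPM in control 2 and at most 0.104 TPM elsewhere. The part of these markers in the results below was not tested.

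**Figure D1:**
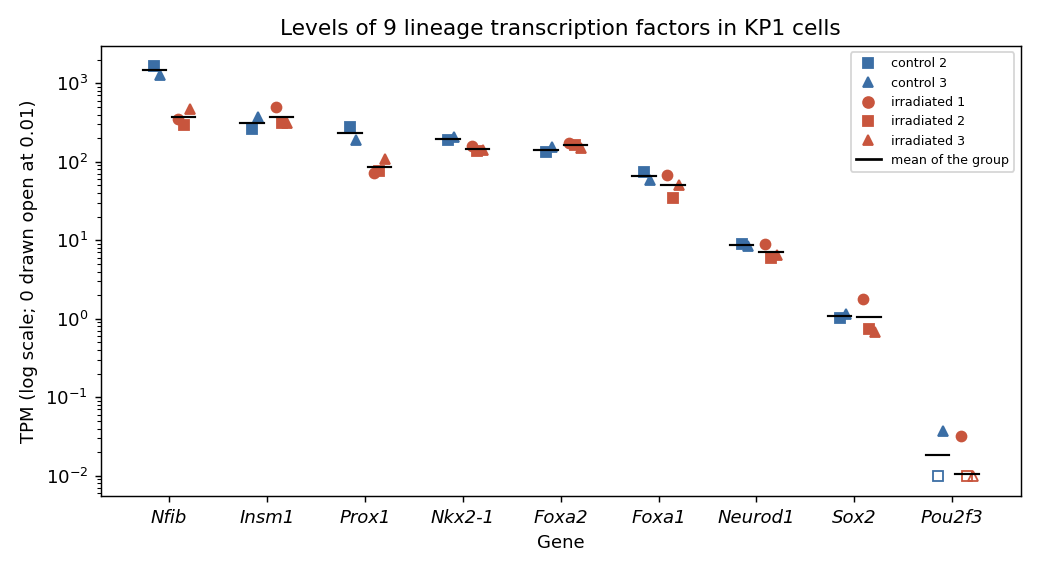
Levels of the 9 lineage factors in each library, in TPM on a log scale, ordered by the control mean. Squares, triangles and circles are the libraries with their replicate number, blue for control and red for irradiated, and the black line is the mean of the group. Nfib fell from at least 1272 TPM in both controls to at most 468 TPM in the 3 irradiated libraries, Prox1 lay lower in all 3, and Sox2 and Pou2f3 lay at the bottom in both groups.

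In control cells the levels spread over a wide range, as the plot of TPM by library shows. Nfib stood first with a mean of 1457 TPM ± 261 (SD, n = 2), and only 161 of the 35056 genes had a higher mean over the 5 libraries. Insm1 (316 TPM ± 74.5), Prox1 (235 TPM ± 62.7) and Nkx2-1 (196 TPM ± 13.4) followed, and each overlapped the next over the 2 libraries. Foxa2 (143 TPM ± 14.1), Foxa1 (66.3 TPM ± 10.6), Neurod1 (8.72 TPM ± 0.41) and Sox2 (1.08 TPM ± 0.103) came next, each apart from its neighbours. Pou2f3 was last, at the floor. In irradiated cells Insm1 (375 TPM ± 110.1, n = 3) and Nfib (369.7 TPM ± 90.1) shared the top with overlapping ranges. Foxa2 (164 TPM ± 12) and Nkx2-1 (146 TPM ± 11.2) overlapped below them. Prox1 (85.9 TPM ± 20.8) stood apart below both, having had a higher mean than both in the controls. Prox1 has long transcripts, and its fall was not called with the length offset (log2 −0.35, adjusted p = 0.183 by edgeR). In bulk libraries fewer cells that express a gene and less RNA per cell cannot be told apart.

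Across the 8 factors that passed the filter, 1 was called higher in irradiated cells (Foxa2), against 12.7% of all genes, and 2 were called lower (Nfib and Prox1), against 13%. With the length offset 0 were called higher, against 2.35%, and 1 lower (Nfib), against 1.69%. At the study's added threshold, a log2 fold change past 1.5, 0 were higher against 1.63% of genes and 1 was lower (Nfib) against 1.9%. The CPM of the groups did not overlap for 3 of the 8 factors (Nfib, Prox1 and Foxa2), against 59.4% of all genes tested, so separation of the groups was common in these libraries.

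**Figure D2:**
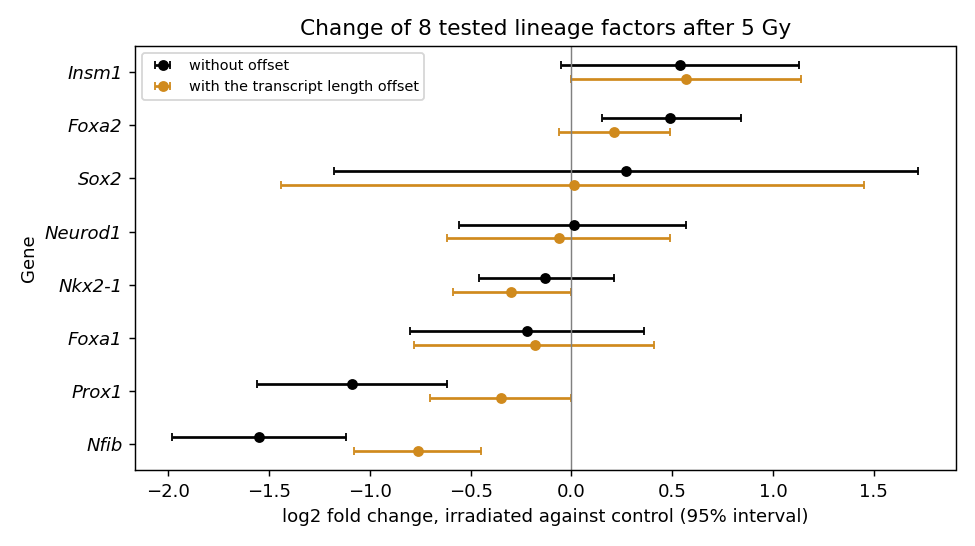
The log2 fold change of the 8 tested factors in irradiated against control cells, with 95% intervals, from edgeR without an offset (black) and with the transcript length offset (orange). Nfib lay below 0 in both fits, while the intervals of Prox1 and Foxa2 lay clear of 0 only without the offset.

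Nfib, a nuclear factor I protein that binds DNA as a dimer, showed the largest fall of the 8 tested factors. It lies at chr4:82290173-82705750 on the minus strand of GRCm38 (ENSMUSG00000008575) and has 12 transcripts in the files. Its level was 1642 and 1272 TPM in controls 2 and 3, and 350.3, 291 and 468 TPM in irradiated libraries 1, 2 and 3. Every irradiated library lay below both controls, and the lowest control stood well above the highest irradiated library. In CPM it was 5559 and 4637 in the controls and 1628, 1521 and 2073 in the irradiated libraries, 2.93-fold lower (log2 fold change −1.55, SE 0.19, 95% interval −1.98 to −1.12, adjusted p = 0.00825 by edgeR). The fall was 1.69-fold with the length offset (log2 −0.76, 95% interval −1.08 to −0.45, adjusted p = 0.0368). By unadjusted p it ranked 39 among the 14106 genes, and by log2 fold change it was number 555 from the lowest. Nfib was called lower under 15 of 16 alternative settings, all but the replicate block with the length offset, and its log2 fold changes ran from −1.69 to −0.73. The 15 include a crossed pairing of replicates that was added after seeing the data.

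Nfib and Prox1 both have long transcripts, with a read-weighted length of 7960 and 7395 bases. They lay in the longest of 10 length deciles of the tested genes, where the median log2 fold change was −0.82 and 59.7% of genes were called lower. Within that decile of 1411 genes, 100 had a lower log2 fold change than Nfib and 370 a lower one than Prox1. The remaining 6 tested factors, from 2028 to 3185 bases, lay in deciles 3 to 6, where the median log2 fold change ran from 0.40 to 0.03. Foxa2 lay in decile 3, where 22.3% of genes were called higher, and 830 of 1410 genes had a lower log2 fold change than it. Transcript length and irradiation moved together in these libraries, and which of them a fall belongs to cannot be told apart from the counts alone.

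**Figure D3:**
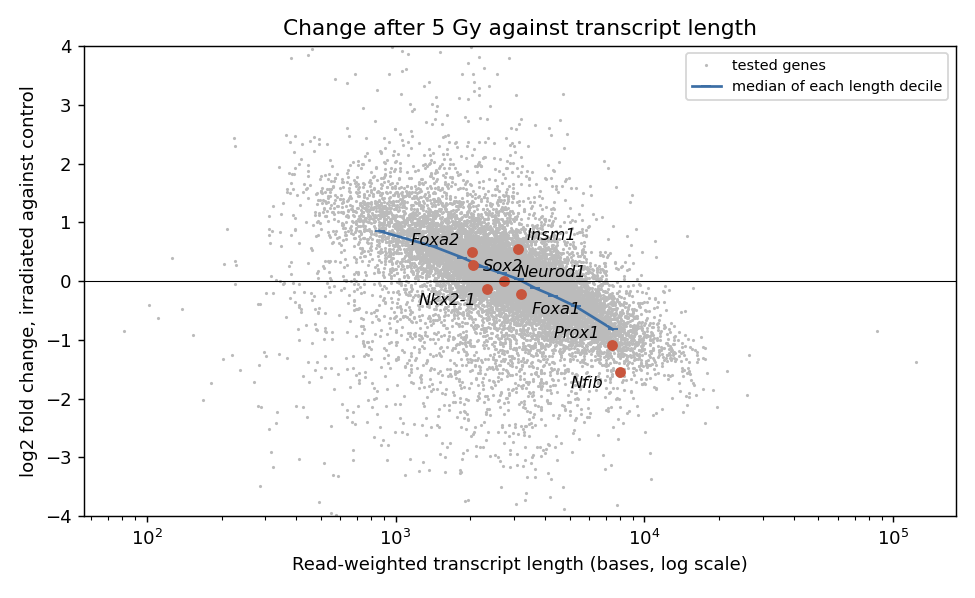
The log2 fold change of each tested gene in irradiated against control cells, against its read-weighted transcript length in bases on a log scale. Grey points are genes, the blue line joins the medians of the 10 length deciles and red points are the 8 tested factors. The medians descend from 0.85 to −0.82, Nfib and Prox1 lie at the long end below the line, and 56 of 14106 genes lie beyond the range drawn.

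The transcripts of Nfib differ in their coding end, and the alternative exons are shown because they set the isoforms apart. The exons below were read from GENCODE M21 transcript Nfib-201 and are given 5′ to 3′ on the minus strand of GRCm38. In exon 9 the capitals mark the 27 bases that Nfib-201 and Nfib-206 keep and Nfib-203 and Nfib-205 lack. In exon 12 the sequence is its coding part in Nfib-201, and the capitals mark the first 15 bases, all that is coding where Nfib-202 and Nfib-203 splice into the same exon.
Nfib exon 9, chr4:82323545-82323710: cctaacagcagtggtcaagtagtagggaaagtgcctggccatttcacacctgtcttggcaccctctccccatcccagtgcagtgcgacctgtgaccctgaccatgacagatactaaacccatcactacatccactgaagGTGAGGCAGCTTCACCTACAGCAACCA
Nfib exon 10, chr4:82320474-82320556: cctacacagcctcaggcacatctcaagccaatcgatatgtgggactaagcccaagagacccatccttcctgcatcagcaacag
Nfib exon 11, chr4:82310303-82310391: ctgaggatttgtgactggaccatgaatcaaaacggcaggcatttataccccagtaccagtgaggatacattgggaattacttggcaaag
Nfib exon 12, chr4:82296685-82296811: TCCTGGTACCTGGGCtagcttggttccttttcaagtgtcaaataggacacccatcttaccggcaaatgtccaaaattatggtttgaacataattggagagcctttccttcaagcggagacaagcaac

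Nfib-202, which skips exons 9, 10 and 11, held most of the gene's reads. Its share of them was 68.2% and 70.5% in the controls and 62.3%, 58.1% and 64.5% in the irradiated libraries, lower in each irradiated library than in both controls. Its share of the gene's TPM, which is scaled by length, overlapped, at 51.6% and 59.1% in the controls and 53.4% to 55.8% after irradiation. Nfib-203, which keeps exon 10 and skips exon 11, held 15.2% and 16.4% of the reads in the controls and 21%, 26.4% and 20.4% after irradiation. Nfib-201, which keeps all of them, held 0% and 3.58% in the controls and 7.01% to 10.5% after irradiation, while Nfib-206, with the same exons 2 to 11 and a shorter last exon, held 5.98% and 3.73% in the controls and 0% to 1.53% after irradiation. The read shares of the groups did not overlap for these 4 transcripts. They are among 8 such transcripts of the 18 member transcripts tested for usage, against 38.3% of all transcripts so tested, so a lack of overlap was common. These shares are Salmon's split of reads between transcripts with long common stretches, and the error of that split is not in the files.

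The isoforms also differ in the length of the last exon, which spans 6639 or 6636 bases in Nfib-201, Nfib-202 and Nfib-203 and 731 or 764 bases in Nfib-204, Nfib-205 and Nfib-206. The forms with the short last exon made up 32.7% and 20% of the gene's TPM in the controls and 17.1%, 9.62% and 15.7% after irradiation, which is lower in every irradiated library although control 3 and irradiated 1 were close. Their summed level was 537 and 255 TPM in the controls and 60, 28 and 73.6 TPM after irradiation. The long forms summed to 1021 and 950.0 TPM in the controls and 270.1, 247 and 364 TPM after irradiation. The summed TPM of either class was lower in each irradiated library than in both controls. The share of the long forms was 62.2% and 74.7% in the controls and 77.1% to 85% after irradiation, and usage was called for none of these transcripts. Transcripts with exon 11 took 32.7% and 22.9% of the TPM in the controls and 18.9% to 23.8% after irradiation, with overlap.

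No transcript of any gene was called in the transcript test, with 0% of 40440 transcripts higher and 0% lower by edgeR at an adjusted p under 0.05, where the smallest adjusted p was 0.0893. At an unadjusted p under 0.05 it held 5047 higher and 3360 lower transcripts, and DESeq2 called 4393 higher and 2294 lower. Of the 29 transcripts of the 9 factors 22 were tested, and 8 were lower and 2 higher at an unadjusted p under 0.05. The log2 fold changes of the transcript test lay 0.22 to 0.23 above those of the gene test for Insm1, Neurod1 and Sox2, which have 1 transcript each. Nfib-202 had a log2 fold change of −1.49 (SE 0.23, adjusted p = 0.0893), Nfib-203 of −0.83 (SE 0.14, adjusted p = 0.0893), Nfib-204 of −1.88 (SE 0.43, adjusted p = 0.103) and Nfib-205 of −1.94 (SE 0.43, adjusted p = 0.101), all by edgeR. Nfib-206 had the lowest value, −3.78 (SE 1.53, adjusted p = 0.245), and rested on 0 to 871 reads in the irradiated libraries. With the offset the adjusted p values of these 5 transcripts ran from 0.168 to 0.498, and Nfib-203 was at −0.28.

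Change in usage was tested as each transcript's log2 fold change against that of its gene. Over all genes 0.21% of 35722 transcripts were called higher and 0.442% lower in usage by edgeR, and 0 of the 18 member transcripts tested were called. At an unadjusted p under 0.05 there were 2, Nfib-206 (usage log2 −2.45, adjusted p = 0.496) and Nfib-201 (usage log2 2.32, adjusted p = 0.671). They share exons 2 to 11 and differ in the first and the last exon. Nfib-202 and Nfib-203 had usage values of −0.16 and 0.50, neither called (adjusted p = 1 for both by edgeR). The 5 retained-intron and processed transcripts of the gene together held 1.01% to 1.62% of its reads, Nfib-208 the most of them with 369.6 to 1537 reads.

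**Figure D4:**
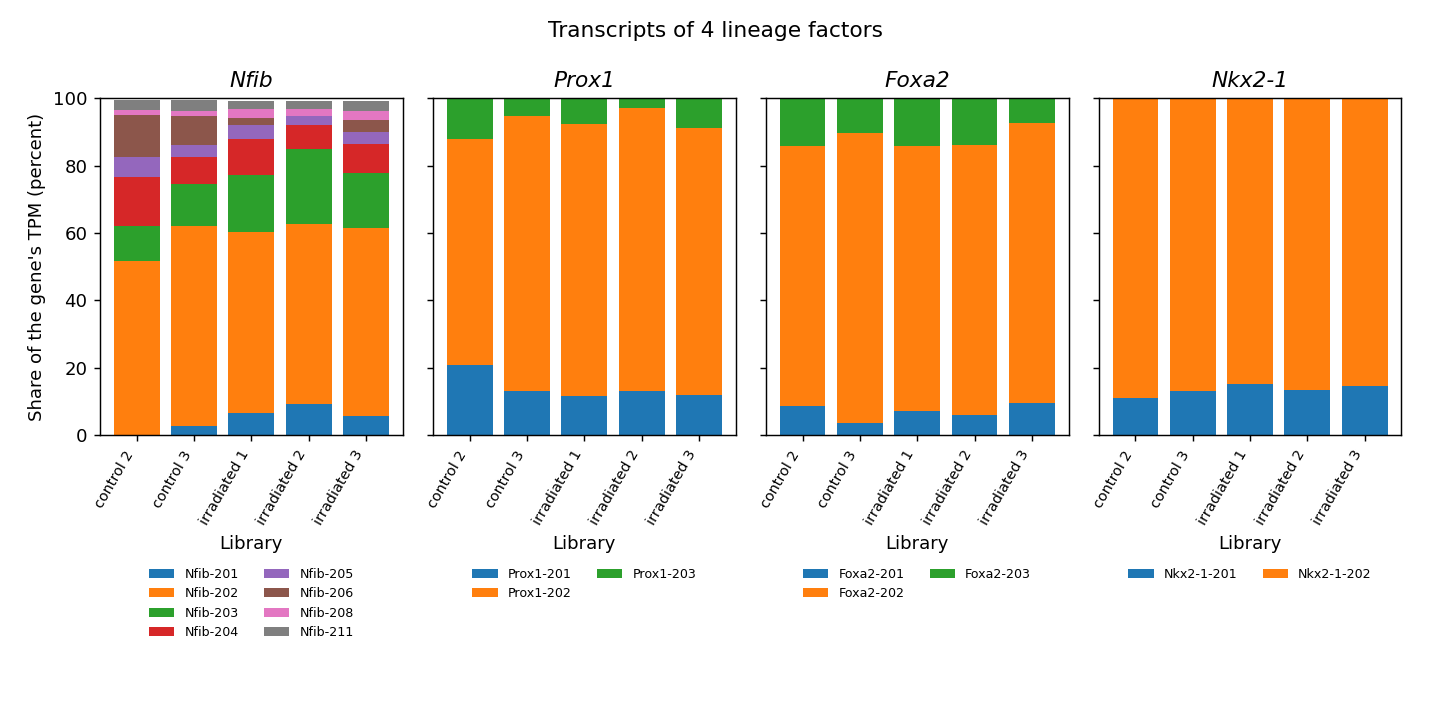
The share of each transcript in the TPM of its gene, in percent, for Nfib, Prox1, Foxa2 and Nkx2-1 in the 5 libraries. Each color is 1 transcript, and transcripts under 1% in every library are left out, so that some bars end just below 100%. Nfib-204, Nfib-205 and Nfib-206 together took 32.7% and 20% of the control bars and 9.62% to 17.1% of the irradiated bars, while Foxa2-202 and Nkx2-1-202 held over 75% of their genes in every library.

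Of the other 3 nuclear factor I genes, Nfix and Nfic were called lower and Nfia was not. Nfix was at 1058 and 828 TPM in the controls and 398, 327 and 485 TPM after irradiation (log2 fold change −0.89, SE 0.19, adjusted p = 0.0144 by edgeR). Nfic was at 297 and 183 TPM in the controls and 109, 79.6 and 109 TPM after irradiation (log2 −0.93, SE 0.22, adjusted p = 0.0199). Nfia was at 24.7 and 7.82 TPM in the controls and 8.06 to 10.7 TPM after irradiation (adjusted p = 0.0856 by edgeR), with overlap and no call. Nfib alone of the 4 kept its call with the length offset, while Nfix (log2 −0.48, adjusted p = 0.0953) and Nfic (log2 −0.46, adjusted p = 0.149) did not, and the difference between the genes was not tested. In the controls Nfib had the highest level of the family, and after irradiation the ranges of Nfib and Nfix overlapped.

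**Figure D5:**
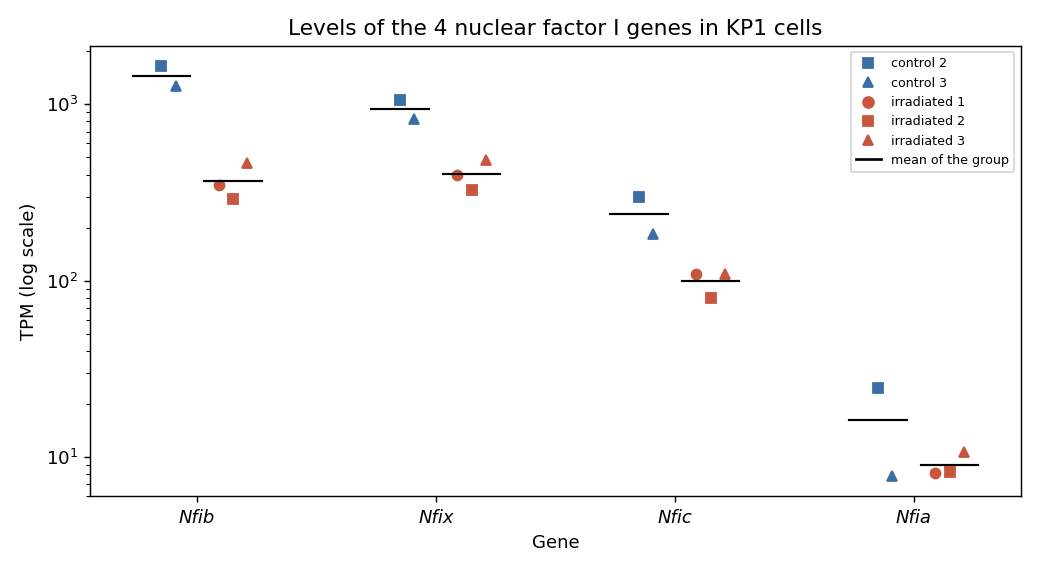
Levels of the 4 nuclear factor I genes in each library, in TPM on a log scale, with markers and colors for libraries and groups and a black line at the mean of each group. All irradiated libraries lay below both controls for Nfib, Nfix and Nfic, while for Nfia control 3 was the lowest of the 5 libraries.

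The protein-coding neighbours of Nfib on chromosome 4 moved in both directions. Zdhhc21, 92988 bases away, had a log2 fold change of −0.75 (adjusted p = 0.0129 by edgeR). Mpdz, 847358 bases away on the other side of Nfib, had −0.88 (adjusted p = 0.012 by edgeR). Both lost the call with the length offset (log2 0.08 for Zdhhc21 and −0.19 for Mpdz). Cer1 had a log2 fold change of −0.24 (adjusted p = 0.414), and Lurap1l was higher, at 0.77 (adjusted p = 0.0364), and was not called with the offset either (log2 0.79, adjusted p = 0.0602). Copy number was not measured here.

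Prox1, a homeobox factor of neuronal, hepatic and lymphatic progenitors, was the other factor that fell. It lies at chr1:190118035-190170714 on the minus strand (ENSMUSG00000010175) and has 3 coding transcripts. Its level was 279.6 and 191 TPM in controls 2 and 3 and 71.8, 76.1 and 109.7 TPM in irradiated libraries 1, 2 and 3. Each irradiated library lay below both controls. In CPM it was 933 and 690.4 in the controls and 319, 365 and 459 after irradiation, 2.13-fold lower (log2 fold change −1.09, SE 0.21, 95% interval −1.56 to −0.62, adjusted p = 0.0115 by edgeR). With the length offset the value was −0.35 (95% interval −0.70 to 0.00, adjusted p = 0.183), and without control 2 it was −0.84 (adjusted p = 0.0675), so the call was lost in both.

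All 3 Prox1 transcripts share the same 2211 coding bases and differ in the first exon and in the length of the last. Prox1-202, with a last exon of 5371 bases, held 83.9% and 92% of the reads in the controls and 90.8% to 93% after irradiation. Prox1-201, which starts at an inner first exon and has a last exon of 953 bases, held 10.4% and 5.75% in the controls and 5.22% to 5.75% after irradiation. Control 2 stood apart in this gene, with 33.2% of the TPM on the short forms Prox1-201 and Prox1-203, against 18.2% in control 3 and 16.2% to 20.9% after irradiation. The transcript values were −0.80 for Prox1-202 (SE 0.19, adjusted p = 0.106), −1.48 for Prox1-201 (SE 0.38, adjusted p = 0.121) and −1.43 for Prox1-203 (SE 0.71, adjusted p = 0.315), all by edgeR and none called. With the offset Prox1-202 was at −0.35 (adjusted p = 0.444). Usage was called for 0 of the 3.

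Foxa2 was the factor called higher, by a small margin. It is a pioneer factor of the foregut endoderm, able to bind closed chromatin, and lies at chr2:148042877-148046969 on the minus strand (ENSMUSG00000037025). Of its 4 transcripts 3 start at a RefSeq start site of the gene, to the base. The sequences at the starts of Foxa2-202 and Foxa2-201 are shown because those starts take nearly all of the reads. They come from RefSeq (GRCm38.p6) on the minus strand, from 250 bases before the start to 30 bases from it on, and capitals mark the bases from the start on.
Foxa2-202 start, chr2:148045919-148046198: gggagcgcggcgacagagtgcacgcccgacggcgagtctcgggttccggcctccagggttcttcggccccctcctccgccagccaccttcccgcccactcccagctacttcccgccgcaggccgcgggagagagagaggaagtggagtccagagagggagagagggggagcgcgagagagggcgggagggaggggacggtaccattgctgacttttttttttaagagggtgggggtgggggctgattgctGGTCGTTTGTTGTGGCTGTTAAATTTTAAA
Foxa2-201 start, chr2:148046940-148047219: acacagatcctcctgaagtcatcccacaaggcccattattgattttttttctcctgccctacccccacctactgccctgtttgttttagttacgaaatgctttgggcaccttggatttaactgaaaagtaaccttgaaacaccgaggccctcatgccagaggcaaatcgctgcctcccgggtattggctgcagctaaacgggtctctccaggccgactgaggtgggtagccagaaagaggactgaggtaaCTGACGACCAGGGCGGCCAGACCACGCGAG

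The CPM of Foxa2 was 117 and 135 in controls 2 and 3 and 186, 185 and 161 in irradiated libraries 1, 2 and 3, 1.41-fold higher (log2 fold change 0.49, SE 0.15, 95% interval 0.15 to 0.84, adjusted p = 0.0455 by edgeR). The groups did not overlap in CPM, whereas in TPM they did, with 133 and 153 in the controls and 175, 166 and 151 after irradiation. Its log2 value with the length offset was 0.21 (adjusted p = 0.284), and Foxa2 was called under 7 of 16 alternatives. The 7 include the crossed pairing that was added after seeing the data. Leaving out any library other than control 3 ended the call, with adjusted p values of 0.0551 to 0.206. Foxa2-202 held 85.8% and 92.9% of the reads in the controls and 87.4% to 89% after irradiation. Foxa2-201, from the start farther upstream, held 9.85% and 4.08% in the controls and 6.93% to 10.3% after irradiation, with overlap of the groups. The log2 fold changes of the transcripts were 0.68 for Foxa2-202 (adjusted p = 0.12) and 1.04 for Foxa2-201 (adjusted p = 0.217), with no call for either. Foxa2-203, a non-coding transcript from the inner start, held 2.16% to 4.36% of the reads, and Foxa2-204 had no reads.

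Foxa1, the close relative of Foxa2, lies at chr12:57540628-57546916 on the minus strand (ENSMUSG00000035451). Its level was 73.8 and 58.8 TPM in the controls and 67.3, 34.5 and 50.1 TPM after irradiation. Irradiated 1 lay between the controls and the other irradiated libraries below them. Its CPM gave a log2 fold change of −0.22 (SE 0.25, 95% interval −0.80 to 0.36, adjusted p = 0.554 by edgeR), and −0.18 with the length offset (adjusted p = 0.681). Foxa1-201 held at least 99.3% of the reads. Foxa1-202, a short non-coding transcript, had 0 reads in both controls and 7.73, 2.81 and 14.6 reads after irradiation, too few for the test.

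Nkx2-1, the homeobox factor of lung and thyroid that is used in the diagnosis of lung tumors, lies at chr12:56531958-56536908 on the minus strand (ENSMUSG00000001496). Its level was 187 and 206 TPM in the controls and 159, 139 and 141 TPM after irradiation. In TPM all irradiated libraries lay below both controls. In CPM the groups overlapped, at 207 and 223 in the controls and 215, 196 and 181 after irradiation (log2 fold change −0.13, SE 0.15, 95% interval −0.46 to 0.21, adjusted p = 0.558 by edgeR). With the length offset the log2 value was −0.30 (adjusted p = 0.178). Nkx2-1 was not called under any of 16 alternatives.

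Nkx2-1 has 2 transcripts with the same 1116 coding bases and different first exons. Nkx2-1-202, from the downstream start, held 86.2% and 83.6% of the reads in the controls and 81.2%, 83.5% and 82% after irradiation. The share of Nkx2-1-201 was the reverse, 13.8% and 16.4% in the controls against 16.5% to 18.8% after irradiation, and the groups touched without overlap. Usage was not called (log2 0.23 for Nkx2-1-201, adjusted p = 1 by edgeR). The start of Nkx2-1-201 matches the RefSeq start site to the base, and its sequence is shown with the same extent and capitals as above.
Nkx2-1-201 start, chr12:56536879-56537158: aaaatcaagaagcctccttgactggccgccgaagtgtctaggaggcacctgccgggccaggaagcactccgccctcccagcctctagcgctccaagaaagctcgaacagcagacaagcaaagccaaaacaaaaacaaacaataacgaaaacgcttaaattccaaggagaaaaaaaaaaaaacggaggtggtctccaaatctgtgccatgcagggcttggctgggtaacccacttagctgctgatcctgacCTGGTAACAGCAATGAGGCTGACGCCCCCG

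Insm1, a zinc finger repressor that recruits the LSD1 (Kdm1a) complex and is required for endocrine differentiation, is an intronless gene at chr2:146221921-146225020 on the plus strand (ENSMUSG00000068154). Its level was 263 and 369 TPM in the controls and 502, 313 and 310.3 TPM after irradiation. Irradiated 1 was the highest of all, and the other irradiated libraries lay between the controls. In CPM the values were 407 and 554 in the controls and 934, 614 and 550.0 after irradiation (log2 fold change 0.54, SE 0.26, 95% interval −0.05 to 1.13, adjusted p = 0.149 by edgeR). Its value was nearly the same with the length offset (log2 0.57, adjusted p = 0.18). It fell to 0.14 with an offset for GC content (adjusted p = 0.699), and Insm1, at 62% GC, was the most GC-rich of the 9 genes.

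Neurod1, a basic helix-loop-helix (bHLH) factor that defines a further subtype of SCLC, lies at chr2:79452521-79456751 on the minus strand (ENSMUSG00000034701). It was low, at 9.01 and 8.43 TPM in the controls and 9.06, 6.02 and 6.46 TPM after irradiation. In CPM the means were 11.6 in both groups (log2 fold change 0.01, SE 0.25, 95% interval −0.56 to 0.57, adjusted p = 0.99 by edgeR). The sign of this value changed with the processing, and it was −0.06 with the length offset (adjusted p = 0.894). Its paralog Neurod4 was higher, at 45.8 and 44.4 TPM in the controls and 29.5 to 40.7 TPM after irradiation, and was not called (log2 −0.15, adjusted p = 0.528). Cerkl, which overlaps Neurod1 on the same strand, had 1.17 to 5.34 reads.

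Sox2, a factor of foregut and neural progenitors that holds cells in an undifferentiated state, is an intronless gene at chr3:34650405-34652461 on the plus strand (ENSMUSG00000074637). It had 28 and 29 reads in the controls and 52, 20 and 21 reads after irradiation, which is 1.01 and 1.15 TPM against 1.77, 0.743 and 0.685 TPM. Irradiated 1 was the highest and the other irradiated libraries the lowest. The log2 fold change was 0.27 with a 95% interval from −1.18 to 1.72 (adjusted p = 0.781 by edgeR), an interval that holds both a rise and a fall of more than 2-fold. It was 0.01 with the length offset (adjusted p = 0.995). Its relative Sox1 was far higher, at 83.6 and 90.3 TPM in the controls and 63.4 to 83.1 TPM after irradiation (log2 0.06, adjusted p = 0.799), and Sox3 was listed at 0.

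Pou2f3 lies at chr9:43123939-43210369 on the minus strand (ENSMUSG00000032015). It had 0 and 1 reads in the controls and 1, 0 and 0 reads after irradiation, all of them on Pou2f3-203, a transcript with a retained intron, and none on its 2 coding transcripts. These counts lie under the floor of 3 reads, and Pou2f3 was not tested. Of 16 further tuft cell genes 6 passed the filter, with a median log2 fold change of −0.59. Calls among them were 0 in either direction, against 12.7% of all genes higher and 13% lower. Their summed level was 46.1 and 48.6 TPM in the controls and 24.1 to 31.3 TPM after irradiation, mostly from Sox9, Hmx2 and Dclk1, which other cells also express. Gfi1b, Ptgs1, Gnat3, Plcb2 and Bmx were listed at 0.

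RefSeq promoter sequences, reaching 250 bases before and 50 bases after the start, were at hand for 6 of the 9 factors, in 9 windows. The windows were searched on both strands for 3 short motifs, spelled out in capitals. TGTTTAC, the core of forkhead sites, was in 1 window, that of Foxa1, and in 3.65% of all 32851 windows. CAAGTG, the core bound by Nkx2 factors, was in the window of the upstream start of Prox1 and in 13.6% of all windows. CAGATG, an E-box read by neurogenic bHLH factors, was in the same Prox1 window and in 17.2% of all. These are letters in a window and not sites of binding.

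Genes that work with or beside the factors were read as lists. Of 19 paralogs 11 were tested, with 0 called higher and 4 lower (Nfic, Nfix, Pou2f1 and Pou2f2) and a median log2 fold change of −0.89. Among all genes 12.7% were called higher and 13% lower. Pou2f1 lay in the longest length decile, where 59.7% of genes were called lower. Nfic, Nfix and Pou2f2 lay in decile 9, where 26.5% were. The offset for length left 1 lower, Pou2f2 (log2 −1.28, adjusted p = 0.0413 by edgeR), an octamer factor of the same family as Pou2f3 known from B cells. Its level was 178 and 82.8 TPM in the controls and 36.1, 19.8 and 37.4 TPM after irradiation. Nkx2-2, an endocrine and neural paralog of Nkx2-1 and a neighbour of Foxa2, was at 26.7 to 44.4 TPM and not called (log2 0.36, adjusted p = 0.306).

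All 20 protein partners and antagonists were tested, with a median log2 fold change of 0.07. Of them 1 was called higher, against 12.7% of all genes, and 2 lower, against 13%. With the length offset 0 were called in either direction. The one called higher was Hdac1 (log2 0.60, adjusted p = 0.0328), a histone deacetylase of the complex that Insm1 recruits. Those called lower were Gse1 (log2 −1.10, adjusted p = 0.00943), a further member of that complex, and Tcf4 (log2 −0.65, adjusted p = 0.0232), an E protein that pairs with bHLH factors. Kdm1a, the demethylase of the complex, had the highest mean level, at 461 and 464 TPM in the controls and 296 to 364 TPM after irradiation, and was not called (log2 −0.13, adjusted p = 0.528). Rest, the repressor of neuronal genes, was at 0.173 TPM or less in every library.

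Of 24 other neuronal and endocrine factors 20 were tested, with 0 called higher, 6 lower (Onecut1, Onecut2, Onecut3, Rfx3, Sox11 and Myt1l) and a median log2 fold change of −0.36. Over all genes 12.7% were called higher and 13% lower. Onecut2, Sox11 and Rfx3 lay in the longest length decile, where 59.7% of genes were called lower. Among the 6, Onecut1 was lower with the length offset too (log2 −1.13, adjusted p = 0.0368 by edgeR), a call that 1.69% of all genes had. It is a homeobox factor of liver, pancreas and neurons and went from 27.8 and 18.6 TPM to between 7.18 and 9.84 TPM. Sox11, a factor of immature neurons with the highest mean level of the list, went from 468 and 269.7 TPM to between 83.9 and 149 TPM (adjusted p = 0.0118 by edgeR). It was not called with the offset (log2 −0.65, adjusted p = 0.0948).

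Of 18 non-neuroendocrine and airway factors 17 were tested, with 1 called higher, 3 lower (Notch2, Tead1 and Foxp2) and a median log2 fold change of 0.08. The shares of all genes were 12.7% higher and 13% lower. The one called higher was Elf3, an epithelial ETS factor, from 15.1 and 21.2 TPM to between 28.5 and 31.9 TPM (log2 1.03, adjusted p = 0.011), and it was the only call of the list with the length offset (log2 0.74, adjusted p = 0.0426). Irx2 had the highest mean level of the list and was not called (log2 −0.07, adjusted p = 0.74). Yap1, which marks non-neuroendocrine SCLC, was at 0.298 TPM or less.

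Among the 74 tested genes of these lists, the gene whose log2 CPM moved most like a factor's over the 5 libraries was found for each factor, by the root mean square of the differences between centred values. Nfib was nearest to the receptor Notch2 (distance 0.12 in log2 CPM) and Prox1 to Tead1 (0.11). Foxa2 was nearest to Lhx2 (0.10), Insm1 to Etv5 (0.15), Nkx2-1 to Tox (0.08), Foxa1 to St18 (0.12), Neurod1 to Id4 (0.10) and Sox2 to Grhl2 (0.18). Of these genes Notch2 (log2 −1.66, adjusted p = 0.00869 by edgeR) and Tead1 (log2 −1.29, adjusted p = 0.00909) were called lower. With the length offset neither was called (log2 −0.67, adjusted p = 0.0538 for Notch2 and log2 −0.41, adjusted p = 0.0968 for Tead1, by edgeR). A gene picked for moving like a factor in these libraries shares its direction through that choice, so the shared direction is not a finding. With 5 points per gene these pairs are a description.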

How the data were processed

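Bulk RNA of 2 control and 3 irradiated libraries of KP1 cells was analysed, grouped by the labels. The authors quantified reads against mm10 with Salmon, listed as version 0.8.2 in the submitters' processing notes beside DESeq2 1.22.2, and deposited for each library expected counts (estimated reads per transcript) and TPM. The authors' files also hold transcript lengths. The annotation release and the strand setting are not given in the sources used here. Because Salmon's split of reads between isoforms is an estimate, isoform values are less certain than gene values.

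Transcripts were matched by identifier to GENCODE M21 (112762 of 113116), carrying 99.87% to 99.88% of the reads. Reads were summed to genes, rounded and tested with edgeR 4.0.16 in R 4.3.3 (filterByExpr, TMM, quasi-likelihood test, Benjamini-Hochberg adjustment over all 14106 genes or 40440 transcripts). Usage was tested with edgeR's diffSpliceDGE. Offsets used a spline with 5 degrees of freedom on log transcript length or GC content in each library. They remove any such trend, technical or biological. An exact permutation test of 2 against 3 libraries cannot go below p = 0.1, so levels and shares were given without a test. The libraries held 21185956 to 31036317 reads. No label gives a batch. Alternatives were DESeq2 1.42.0, other normalizations, filters and offsets, protein-coding genes alone, a replicate block and each library left out.

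On simulated counts, edgeR recovered 99% of changed genes with 6 false calls (13994 genes tested). With a simulated length trend it made 3104 false calls, and 10 with the offset (14166 genes). The usage test recovered 60.8% of changed transcripts with 125 false calls (35576 transcripts), counting other isoforms of the same gene as false. The edgeR transcript test recovered 100% with 9 false calls (40232 transcripts). In the KP1 libraries the same test called 0% of 40440 transcripts in either direction. The effect sizes and the spread of the simulated counts are not given here. How far these percentages hold for the KP1 libraries was not tested.

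The members and lists were chosen with earlier results of these data known. The rule for named genes was all 9 members, their transcripts with a mean TPM of 0.5 or 5% of the gene's reads, and, from each list, the genes called, the gene of highest mean TPM and the nearest in pattern. Pdgfra, Col1a1, Rest, Yap1, Nkx2-2, Neurod4, Nfia, Sox1, the neighbours of Nfib and the genes listed at 0 were named after their values were seen. Another lineage factor is not reported here. Plots used Python 3.11.15 with pandas 2.3.3, numpy 2.4.6 and matplotlib 3.10.9.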

Additional observations from a re-analysis of the deposited data

How the results depend on the processing

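The number of factors called lower, 2, was 1 with the transcript length offset, 1 with the replicate block, 1 at a log2 fold change past 1.5, 0 with the block and the length offset together, and 1 to 2 when single libraries were left out (1 without control 2, which also gave Prox1 −0.84, adjusted p = 0.0675 by edgeR). The number called higher, 1, was 2 without the filter on low counts (Insm1 added) and 0 with the transcript length, effective length or GC content offset, with the block alone or with the length offset, at a log2 fold change past 1.5, and without any library other than control 3 (range 0 to 1). Among their transcripts DESeq2 called 1 higher and 6 lower and the fit without a filter called 3 lower, where edgeR called 0. Leaving out control 3 gave 1 transcript higher and 1 higher in usage (0 to 1 over the libraries), Nfib-201, which then stood against a control at 0 reads. With protein-coding transcripts alone Nkx2-1 was the third and Foxa2 the fourth in irradiated cells (places 3 and 4). Prox1 kept its call with 12 of 16 alternatives, among them the crossed pairing described below. Where 1 control is left it is assumed to vary like the irradiated libraries.

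Signs changed for values near 0. Neurod1 (0.01) was −0.01 with RLE normalization, 0.00 with protein-coding genes alone, −0.06 with the length offset, −0.19 with the replicate block, −0.27 with block and length offset, −0.20 with the crossed block, and −0.20 to 0.11 with single libraries left out. Sox2 (0.27) was −0.30 with the replicate block, −0.58 with block and length offset, −0.30 with the crossed block, and −0.30 to 0.54 with single libraries left out. Foxa1 (−0.22) was 0.00 without control 2 and −0.50 without irradiated 1. Usage of Nfib-202 was 0.54 with the length offset, and with single libraries left out usage ran from −0.93 to 0.07 for Nfib-204, from −0.01 to 0.13 for Prox1-202 and from −1.02 to 0.36 for Prox1-203. Irradiated 1 has no control of its number, so with either block it adds nothing to the change between the groups. The block values without an offset therefore nearly repeat those without irradiated 1, which were −0.20 for Neurod1 and −0.30 for Sox2. The cause of the other changes was not tested.

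The block pairs libraries 2 and 3 by number, and with it Prox1 was −0.97 (adjusted p = 0.0883) and, for block and length offset, Nfib −0.73 (adjusted p = 0.207). Their log2 ratios between the groups correlated at −0.196 over 14106 genes, and no label says that the numbers mark shared handling, so a crossed pairing was added after seeing the data. It called 3 of the factors lower (Nfib, Prox1 and Foxa1) and Foxa2 higher. Because the crossed pairing was picked after that negative correlation was seen, a smaller spread was built into it. Nfib was −1.52 with either pairing, with an SE of 0.36 by number and 0.11 crossed. The calls of the crossed pairing are therefore no support, also where they enter the counts of alternatives given above. Depth limits Pou2f3, which lay under the floor of 3 reads.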
